A study of Homo sapiens with 4 samples.

Results

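The insulin-like growth factor (IGF) axis was followed in Hep G2 cells, an established human liver cancer line, through 9 genes chosen by name: the ligand IGF2, the receptors IGF1R and IGF2R, the binding proteins IGFBP1, IGFBP2, IGFBP3, IGFBP4 and IGFBP6, and IGFALS. Each was matched by its Ensembl gene ID to a row of the count table, giving 9 members among 62655 gene IDs. All 9 passed the filter on low counts, which left 14464 genes. The choice was made with an earlier analysis of the same comparison in view, so counts over the members describe them and test nothing.

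Every library came from cells plated at 150000 per ml and moved after 24 h to medium rich in oleic acid (OA), which loads them with fat. After another 24 h they were transfected with HiPerFect. The mimic group received an oligonucleotide mimic of LysTTT-5'tRF, a fragment from the 5' end of lysine tRNA (anticodon TTT), and the control group received the negative control oligonucleotide (NC). RNA was taken 24 h later, and the 4 libraries formed 2 groups of 2. All of them were steatotic, so no library shows the axis without oleic acid, and all are of 1 cell line. The names of the control columns carry the abbreviation NC. Those of the mimic columns carry a number that the sample labels do not explain, and were read as mimic as the only other treatment. Whether libraries of a group came from separate cultures is not stated. The p-values therefore speak only to these 4 libraries, and the spread among them may be technical. Library numbers below are those in the column names.

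IGF1 and IGF2 are small secreted peptides related to insulin. They signal through IGF1R, a receptor tyrosine kinase, while IGF2R binds IGF2 and carries it to lysosomes. Binding proteins hold IGFs in solution and control how much reaches the receptors, and the liver is a main source of several of them. IGFBP1 is known as the binding protein whose liver mRNA is held down by insulin and raised by fasting, low oxygen and stress. IGF2 is a fetal growth factor that liver tumours often make again.

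The title of the study names miR-194-5p, a liver-rich microRNA, beside the tRNA fragment, so its seed was looked for in the members. The mature sequence (RefSeq, GRCh38.p14) is the same from both of its precursor genes, on chromosome 1 at chr1:220118206-220118227 and on chromosome 11 at chr11:64891404-64891425, both on the minus strand. It is shown with the seed, bases 2 to 8, in capitals.
hsa-miR-194-5p: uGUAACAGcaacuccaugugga
The complement of the seed, CTGTTAC on the transcript strand, was found in the longest annotated 3' UTR (GENCODE 29, GRCh38) of 1 of the 9 members. IGF1R held 2 matches in a 3' UTR of 7088 bases, at positions 559 and 1608 from its start. They lie on the plus strand at chr15:98958001-98958007 and chr15:98959050-98959056. Both are shown with the match in capitals, and only the second is followed by an A, the base often found opposite the first base of a microRNA.
IGF1R site 1: catcgttcatccaaggCTGTTACcattt
IGF1R site 2: ctcacagcattggagcCTGTTACagtgc
The same 7 letters occurred in 9.86% of the 3' UTRs of 19111 protein-coding genes, and in 33.8% of the 627 whose length was 0.8 to 1.2 times that of IGF1R. The other 8 members held none, with 3' UTRs from 178 bases in IGFBP6 to 6420 bases in IGF2R. miR-194-5p was not changed or measured in these libraries, and a match is a description of the letters.

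With the mimic 2 members fell, the ligand IGF2 and the binding protein IGFBP1, and none rose. Their levels with the mimic were 0.87 and 0.79 times those of the control. The other 7 did not pass the test. A gene was called where its p from the quasi-likelihood test of edgeR, adjusted by Benjamini-Hochberg over all 14464 genes, was under 0.05. Of those genes 0.346% were called, 0.0691% lower and 0.277% higher. The p-values below come from the comparison that was in view when the members were chosen, and are given as a description. The edgeR test also takes much of a gene's spread from other genes, with a median of 23.1 degrees of freedom, residual and prior together. Its p-values therefore do not measure the spread of each gene in these libraries alone. In bulk RNA, fewer cells of a type and less RNA per cell cannot be told apart.

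IGF2, the only IGF ligand with more than single reads here, was lower in both mimic libraries. Levels are in CPM, that is, per 1000000 reads after TMM scaling. It stood at 652 CPM in mimic library 1 and 713 CPM in mimic library 2, against 787 CPM in control library 1 and 789 CPM in control library 2. The groups did not overlap, and the control libraries were almost level with each other while the mimic libraries differed by 0.13 on the log2 scale. Group means were 683 ± 42.5 and 788 ± 0.862 CPM (SD, n = 2 each). On the log2 scale the fold change was -0.21 ± 0.04 (standard error; 95% interval -0.30 to -0.11; edgeR adjusted p = 0.039). Without mimic library 1 the call was lost, with a log2 fold change of -0.15 and an edgeR adjusted p of 0.64.

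Much of the annotated IGF2 gene overlaps other genes. IGF2 (ENSG00000167244) lies on the minus strand of chromosome 11, from 2129112 to 2149603 of GRCh38. In GENCODE 29, 73.7% of its 6979 exon bases are shared with other genes on the same strand. These are INS-IGF2, the read-through from the insulin gene, a longer overlapping model (ENSG00000284779) and a 3' overlapping non-coding RNA (ENSG00000240801). All 3 were at 0 reads in every library. A further overlap of 4.77% runs against IGF2-AS on the opposite strand, which held 6 to 18 reads per library. No other gene shares the remaining 1744 bases. Reads set aside as ambiguous between genes made up 6.29% to 6.36% of each library's total. How far they hold IGF2 reads, and how the overlap bears on the level or the fold change, was not tested.

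H19, the imprinted non-coding RNA beside IGF2, held 2 to 9 reads per library and was too low to test. IGF1, the growth hormone-dependent ligand made by normal hepatocytes, had 2 reads over all 4 libraries. INS, the insulin gene, had none, which allows up to 0.196 CPM in the smallest library (3 counts, for counting error only).

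The receptors did not follow the ligand. IGF1R, the signalling receptor, had 258 and 256 CPM in mimic libraries 1 and 2, and 238 and 232 CPM in control libraries 1 and 2. Both mimic libraries lay above both control libraries, and each pair differed little within itself. Its log2 fold change was 0.13 (95% interval 0.03 to 0.23; edgeR adjusted p = 0.389), and it was not called in either direction. This says nothing about its miR-194-5p seed matches, since that microRNA was not changed or measured here. The estimate stayed between 0.11 and 0.15 with each library left out in turn.

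IGF2R, the clearance receptor and also a carrier of lysosomal enzymes, had 2299 CPM in mimic library 1 and 2127 CPM in mimic library 2. Control libraries 1 and 2 had 1937 and 2318 CPM. The highest and the lowest values were both controls, so the groups overlapped. The log2 fold change of 0.06 had a 95% interval of -0.06 to 0.17 (edgeR adjusted p = 0.826). That interval takes much of its spread from other genes, while the 2 controls alone differed by 0.26 on the log2 scale. Which control was kept decided its sign. Without control library 1 the estimate was -0.066. Without control library 2 it was 0.19 and was called, in a fit with a single control library.

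IGFBP1 gave the largest change called among the members. It read 836 CPM in mimic library 1 and 976 CPM in mimic library 2, against 1061 and 1231 CPM in control libraries 1 and 2. Every mimic value lay below every control value. Mimic libraries averaged 906 ± 98.8 CPM, control libraries 1146 ± 120 CPM (SD, n = 2 each). This was a log2 fold change of -0.34 ± 0.06 (standard error; 95% interval -0.46 to -0.21; edgeR adjusted p = 0.00994). Libraries of 1 group also differed from each other, by 0.22 on the log2 scale in the mimic and 0.21 in the control. The gap between the nearest libraries of the 2 groups, mimic library 2 and control library 1, was 0.12.

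The fall of IGFBP1 was called with each library left out, with log2 fold changes from -0.46 without mimic library 2 to -0.23 without control library 2. DESeq2 gave nearly the same estimate, -0.34, without calling it (adjusted p = 0.439, Wald test, Benjamini-Hochberg). In contrast IGF2 passed in DESeq2 (adjusted p = 0.00584). IGFBP1 (ENSG00000146678) spans 45888357 to 45893668 on the plus strand of chromosome 7 in GRCh38, and its 1653 exon bases overlap no other annotated gene.

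**Figure D1:**
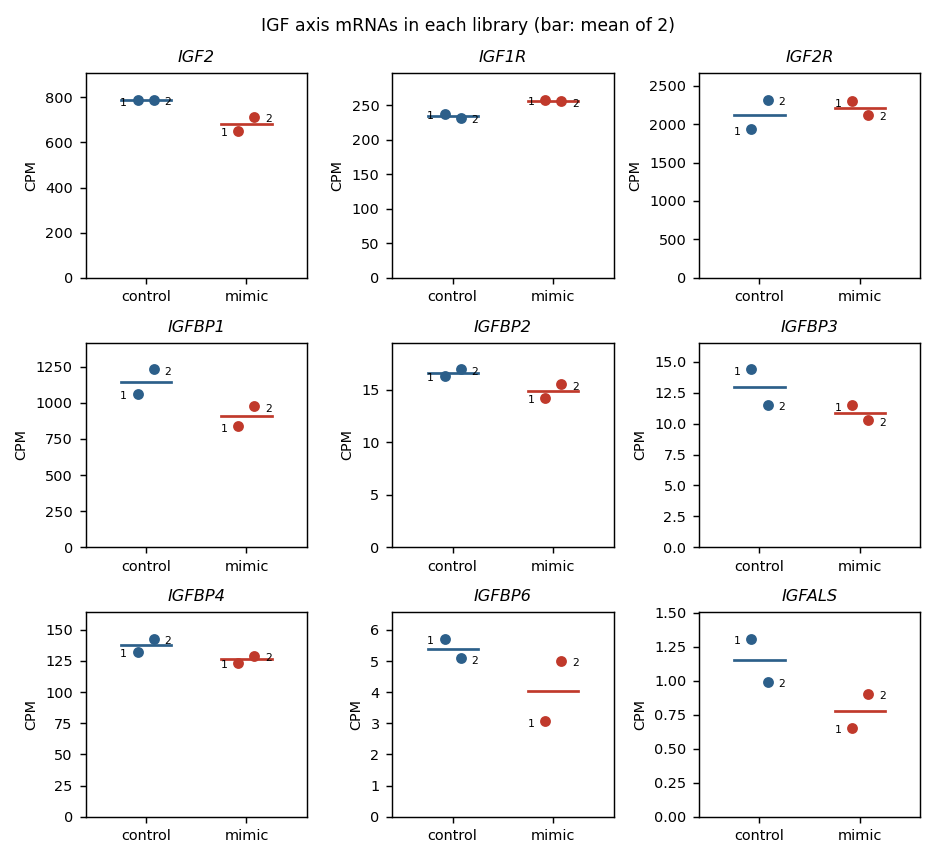
Level of each of the 9 mRNAs in CPM (vertical axes, each from 0) in the 2 control and 2 mimic libraries; points are libraries with their number and bars are means. IGF2 and IGFBP1 lie lower in both mimic libraries, IGF1R lies higher in both, and IGF2R overlaps between groups.

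The remaining binding proteins had estimates below 0 that did not pass. IGFBP4, an inhibitory binding protein that the protease PAPPA cleaves, had 123 and 129 CPM in mimic libraries 1 and 2 and 132 and 143 CPM in control libraries 1 and 2. The groups did not overlap, but only by a narrow margin, and the log2 fold change was -0.12 (95% interval -0.24 to -0.00068; edgeR adjusted p = 0.528). IGFBP2, a binding protein abundant in fetal life, ranged from 14.2 to 15.5 CPM with the mimic and from 16.4 to 17.0 CPM in the control (log2 fold change -0.16, interval -0.42 to 0.11). IGFBP3, the main carrier of IGFs in blood, ranged from 10.3 to 11.5 CPM and from 11.55 to 14.4 CPM, so that mimic library 1 and control library 2 were almost equal (-0.26, -0.58 to 0.05).

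IGFBP6, which prefers IGF2 over IGF1, stood at 3.07 CPM in mimic library 1, and at 5.00, 5.71 and 5.09 CPM in mimic library 2 and control libraries 1 and 2. A single library was therefore low, and its log2 fold change of -0.39 (interval -0.90 to 0.12) was -0.11 without that library. IGFALS, the acid-labile subunit that joins IGF and IGFBP3 in a large blood complex, had only 10 to 22 reads per library. Its estimate of -0.54 had an interval from -1.55 to 0.47, too wide at this depth to tell a fall from a rise. Of its exon bases 2.71% are shared with SPSB3 on the same strand. IGFBP2, IGFBP3, IGFBP6 and IGFALS had edgeR adjusted p-values between 0.631 and 0.801.

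Counted over the members, 7 estimates lay below 0 and 2 above it, where 49.6% of all tested genes lay below 0. The median log2 fold change was -0.21, against 0.0011 over all tested genes. In 7 members both mimic libraries lay below both controls, as in 19.3% of all tested genes, and in 1, IGF1R, above them, as in 19.8%. At an unadjusted p under 0.05 there were 4 members, IGF2, IGFBP1, IGFBP4 and IGF1R, where 9.43% of all tested genes reached it. The members were chosen with this comparison known, so nothing is read from these shares. Mimic library 1 was the lowest of the 4 in 6 members and control library 2 the highest in 5.

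**Figure D2:**
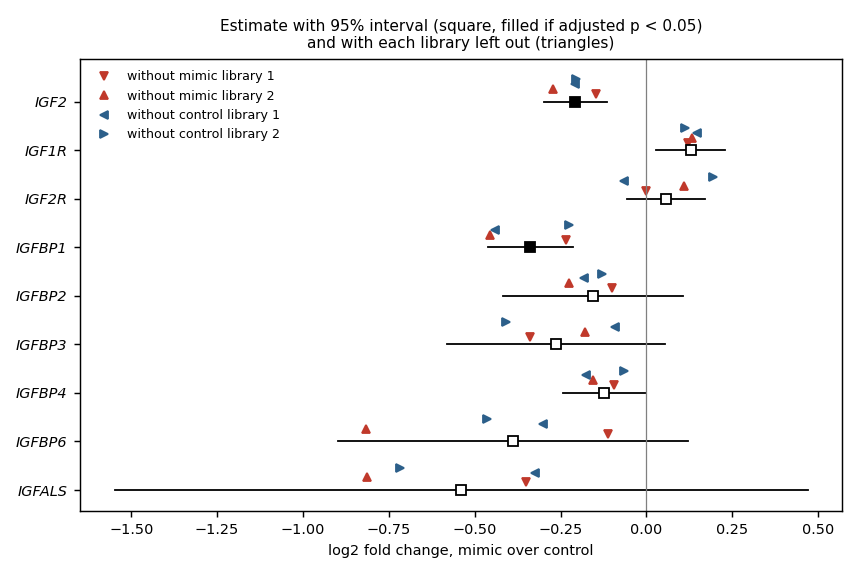
Log2 fold change, mimic over control (horizontal axis), for each member; squares are estimates from all 4 libraries with 95% intervals, filled at an adjusted p under 0.05, and triangles are estimates with 1 library left out. Only IGF2 and IGFBP1 are filled. The triangles of IGF2R fall on both sides of 0.

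Levels between genes were compared per length, as CPM per kb of annotated exon. IGFBP1 was highest, with 506 and 590 CPM per kb in the mimic libraries and 642 and 745 CPM per kb in the controls. IGF2R came next with 109 to 130 CPM per kb over the 4 libraries and IGF2 with 93.5 to 113, and these ranges overlapped. IGFBP4 followed with 56.1 to 64.8 and IGF1R with 16.6 to 18.5 CPM per kb, each apart from its neighbours in every library. The ranges of IGFBP6 (2.28 to 4.24), IGFBP2 (2.99 to 3.56) and IGFBP3 (2.25 to 3.15 CPM per kb) overlapped. IGFBP2 was above IGFBP3 in each of the 4 libraries, while IGFBP6 was the lowest of the 3 in mimic library 1 and the highest in the others. IGFALS was lowest of all members with 0.276 to 0.554 CPM per kb.

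Reads were not counted by position within IGF2. If its count held only reads from the 1744 unshared exon bases, which was not tested, IGF2 would stand at 422 CPM per kb, the mean of 4 libraries, in place of 105. It would then pass IGF2R, which stays at 122 CPM per kb. The length of the longest transcript in place of all exons reordered only the 3 overlapping binding proteins, with IGFBP3 then first among them.

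IGFBP1 made up most of the binding protein mRNA. Its share of the summed CPM per kb of the 5 IGFBP members was 88.8% and 89.7% in mimic libraries 1 and 2, and 90.0% and 90.9% in control libraries 1 and 2. IGFBP4 held most of the rest, 9.84% and 8.90% with the mimic and 8.44% and 7.91% in the control. The sum itself was 570 and 658 CPM per kb with the mimic, and 713 and 820 CPM per kb in the control. The share of IGFBP1 was lower, and that of IGFBP4 higher, in both mimic libraries than in both controls. Since IGFBP1 makes up most of the sum, its share has little room to move, and the sum mostly restates the level of IGFBP1. IGFBP5, a binding protein of bone and connective tissue, had 11 reads over all libraries.

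**Figure D3:**
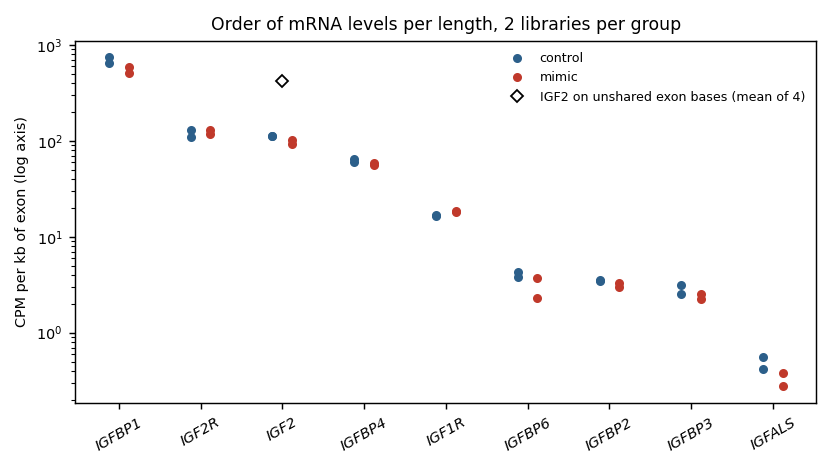
Level of each member in CPM per kb of exon (vertical log axis), ordered by the 4-library mean. Points are the 2 control and 2 mimic libraries, and the open diamond is the whole IGF2 level divided by the length of its unshared exon bases. IGFBP1 is the highest, and IGFBP6, IGFBP2 and IGFBP3 overlap.

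Other genes of the pathway were taken from 9 lists of 103 genes in all, of which 85 could be tested. HIF1A rose, none fell and 84 did not pass. The genes named from each list are among the 2 of smallest p there, apart from 3 said below to be chosen for their roles. They are given with their log2 fold changes, and except for HIF1A none of them passed in the edgeR fit. None of the 9 receptors and adaptors that could be tested passed (median 0.04). The adaptor GRB10, which restrains insulin and IGF1 receptors, was at -0.20 (95% interval -0.38 to -0.03) and the adaptor SHC1 at -0.10. Of 17 tested steps from PI3-kinase to mTOR none passed (median -0.0019). The regulatory subunit PIK3R1 was at 0.14 (95% interval -0.012 to 0.29).

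Among 5 tested IGF-binding and IGFBP-related proteins outside the members none passed (median -0.18). CCN2, also called connective tissue growth factor, had 422 and 379 CPM in mimic libraries 1 and 2 and 462 and 441 CPM in control libraries 1 and 2. The groups did not overlap, and its log2 fold change was -0.18 (interval -0.28 to -0.07; edgeR adjusted p = 0.185). With each library left out, the estimate for CCN2 ran from -0.26 without mimic library 1 to -0.10 without mimic library 2. IGFBPL1 was at -0.58 on 2 to 16 reads per library.

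None of 9 tested IGFBP proteases and their inhibitors passed (median 0.05). The membrane protease TMPRSS6 was at -0.38 from about 3 CPM (mean 2.93 ± 0.076 against 3.83 ± 0.203 CPM, SD, n = 2 each).

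None of 8 tested genes of the IGF2 locus and of proteins that bind IGF2 mRNA passed (median -0.04). IGF2BP3, an RNA-binding protein of fetal tissue and tumours, was at -0.14 (interval -0.27 to -0.0062), and HMGA2, a chromatin protein known to raise IGF2 transcription, at -0.09. In both genes the mimic libraries lay below the controls without overlap, as in 19.3% of all tested genes. These genes were named for their small p within the list, so nothing is read from the lack of overlap. A link of either gene to the level of IGF2 was not tested. IGF2BP3 had 79.2 and 82.4 CPM with the mimic against 89.2 and 88.8 CPM in the control. HMGA2 had 380 and 372 CPM against 387 and 413 CPM. Of 8 tested genes of the growth hormone axis none passed (median -0.10), with the transcription factor STAT5B at -0.21 (interval -0.36 to -0.06) and the signal inhibitor SOCS1 at -0.34.

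The mRNAs of FOXO factors, partner factors and insulin-repressed liver genes did not pass either. Of the 15 tested none had an unadjusted p under 0.05, with a median of 0.0019 and estimates from -0.22 to 0.19. TRIB1, a pseudokinase of liver lipid metabolism, was at -0.11 and the factor FOXO4 at 0.19. Chosen for their roles after the values were seen, FOXO1 was at 0.04 (interval -0.13 to 0.22), the gluconeogenic enzyme PCK1 at -0.06 (-0.31 to 0.19), and G6PC1 at 0.11 (-0.38 to 0.60) in the same fit.

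Hypoxia and stress response genes held the call outside the members. HIF1A, the oxygen-regulated subunit of HIF-1, had 228 and 213 CPM in mimic libraries 1 and 2, against 187 and 186 CPM in control libraries 1 and 2. The groups were apart by more than either differed within itself, and its log2 fold change was 0.24 (interval 0.14 to 0.35; edgeR adjusted p = 0.0369). The call was lost without mimic library 1 (0.19, adjusted p = 0.496) and narrowly without control library 2 (0.24, adjusted p = 0.0506), with upper-quartile scaling (adjusted p = 0.0505), with library totals (adjusted p = 0.0549), and when low-count genes were kept in (adjusted p = 0.754). EGLN3, a HIF target and oxygen sensor, had 28.1 and 37.5 CPM with the mimic against 41.1 and 43.0 CPM in the control, and its -0.34 (interval -0.56 to -0.13) did not pass (edgeR adjusted p = 0.22). With each library left out, its estimate ran from -0.58 without mimic library 2 to -0.17 without mimic library 1. The other 12 tested genes of this list did not pass (list median -0.04). At an unadjusted edgeR p under 0.05 the list held 4 genes, 1 higher and 3 lower with the mimic, where 9.43% of all tested genes reached it.

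**Figure D4:**
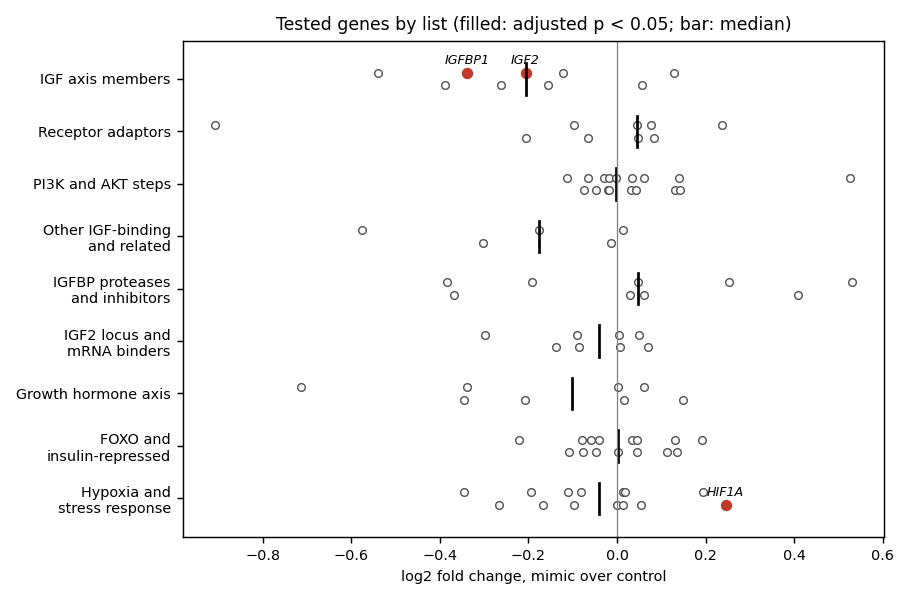
Log2 fold change, mimic over control (horizontal axis), of the tested members and of the tested genes of 8 pathway lists; points are genes, filled at an adjusted p under 0.05, and bars are medians. The filled points are IGFBP1 and IGF2 below 0 and HIF1A above 0.

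The pattern of IGFBP1 over the 4 libraries was set beside 8862 genes that averaged 10 CPM or more. Likeness was the root mean square distance between log2 CPM centred on the 4-library mean. The nearest were SERINC2 (distance 0.019), ENSG00000176593 (0.025), the replication helicase subunit MCM5 (0.026), SLX4IP (0.029) and C11orf68 (0.032). In each of them mimic library 1 was lowest, then mimic library 2, control library 1 and control library 2, as in IGFBP1, where the centred values were -0.28, -0.06, 0.06 and 0.28. Their log2 fold changes lay between -0.32 and -0.29, none passed the test, and the likeness rests on 4 libraries. Because the genes were picked by this distance, the shared order and the similar fold changes follow from the choice and show nothing further. IGF2 ranked 309 in the same order of likeness (distance 0.105), with control libraries 1 and 2 at the same centred value of 0.10 and 0.11.

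**Figure D5:**
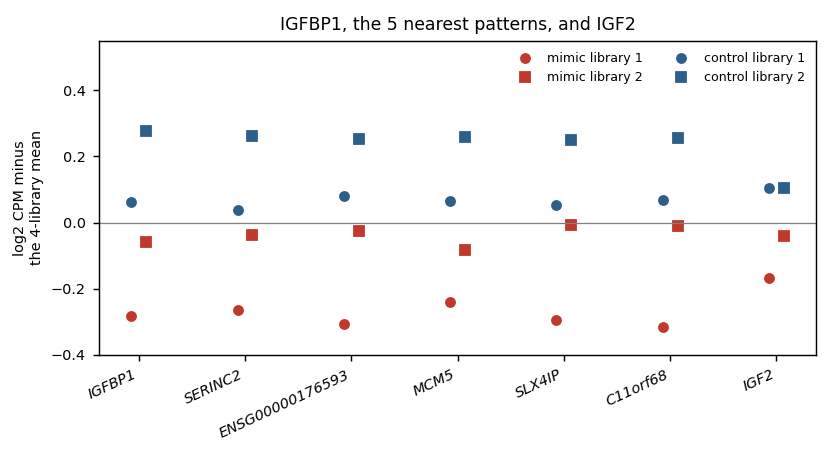
Log2 CPM minus the 4-library mean (vertical axis) for IGFBP1, the 5 genes nearest to it and IGF2; circles and squares are libraries 1 and 2 of each group. The 4 libraries are spread in the same order in the first 6 genes, as follows from how the 5 were picked. The 2 control libraries coincide in IGF2.

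Reads in genes ranged from 15430539 to 18961222 per library. The 12 hepatocyte markers summed to 50845 and 50502 CPM in the mimic libraries and to 49567 and 47646 CPM in the controls, so the libraries carried the genes of the labelled line. A large part of that sum was APOB alone, with a mean of 25153 CPM. Markers of stellate cells and fibroblasts summed to 30.8 to 36.3 CPM (COL1A2 and DCN at 0 reads), of endothelium to 10.9 to 13.4 CPM (KDR at 0 reads) and of adipocytes to 5.17 to 9.19 CPM (ADIPOQ and LEP at 0 reads). Leukocyte markers PTPRC, CD163, MARCO and CD3E were at 0 reads in every library, while LYZ alone gave 1525 CPM. Markers of bile duct cells, which this line expresses in part, summed to 2318 to 2443 CPM with KRT7 at 0 reads. SPP1 was the highest of them, with a mean of 1409 CPM. None of the markers of other cell types was called, where 0.346% of all tested genes were. Tested were 3 of 9 stellate cell and fibroblast markers, 4 of 6 endothelial and 4 of 6 bile duct markers. Of the leukocyte markers 1 of 7 was tested, and of the adipocyte markers 1 of 4. Among the hepatocyte markers ALB, the serum albumin gene, was called and rose (log2 fold change 0.23; edgeR adjusted p = 0.0109). Its part in the results for IGF2 and IGFBP1 was not tested.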

How the data were processed

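The authors deposited raw read counts, listed by Ensembl gene ID, for 4 poly(A)-selected libraries, made per the labels from 500 ng of RNA with integrity numbers above 9.5. The tools listed, per the submitters' processing notes, are HTSeq, STAR, Bowtie2 and FastQC, and the build is GRCh38.p14. HTSeq's strand setting, the annotation release and tool versions: not given in the sources used here. Symbols were found for 62590 of 62655 gene IDs. The 5 HTSeq summary entries, 23.1% to 24.1% of each library, stayed out of library sizes and tests.

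Tests used R 4.3.3 and edgeR 4.0.16: filterByExpr (minimum count 10, total 15), TMM scaling, glmQLFit (legacy = FALSE) and glmQLFTest, with Benjamini-Hochberg adjustment at 0.05. The steps were tested on simulated data. Exon lengths and overlaps came from GENCODE 29. There were 13 alternative fits, among them DESeq2 1.42.0, limma 3.58.1 (voom), other scalings and filters, and each library left out. Named genes were all members, the 2 of smallest p and any called in each list, and the 5 nearest IGFBP1. Of these, 2 list genes are not reported here. Members, lists and named-gene rules were chosen with earlier results of these data known.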

Additional observations from a re-analysis of the deposited data

How the results depend on the processing

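With 2 libraries per group, a single library could move the calls. A fit with 1 library left out has a group of 1, so its calls rest largely on spread borrowed from other genes. Those calls are a description and do not show that a result is stable. The count of genes called over the whole table, 50 in the fit reported, ran from 20 to 424 with each library left out (leaving out mimic library 1 gave 20 and mimic library 2 gave 120; leaving out control library 1 gave 424 and control library 2 gave 22), and the members called ran from 1 to 3. It was 306 with the column number as a replicate block and 0 with no filter on low counts, where edgeR gave 1514 genes an unadjusted p under 0.05 and called 0 members. The block left IGF2 and IGFBP1 called and added no member. Outside the members, CCN2, EGLN3, SERINC2 and MCM5 were not called in the fit reported. Each of them was called in 3 alternatives, the block among them, and GRB10 in 1. The sample titles share no number between groups, so the block was not taken as a pairing. Same-numbered columns deviated together with a correlation of 0.02 over 14464 genes, those of low counts included, which cannot exclude a pairing. DESeq2 called 38 genes and 1 member, IGF2. The log2 fold change of IGFBP1 was -0.34 both in DESeq2 (adjusted p = 0.439) and with no filter (adjusted p = 0.754), and passed in the other 11 alternatives. IGF2 passed in 11 of 13, from -0.27 to -0.15 over all 13. IGF2R turned to -0.0026 without mimic library 1 and -0.066 without control library 1, with a highest value of 0.19 without control library 2. That last fit was the only alternative in which IGF2R was called. IGFBPL1 turned to 0.11 without mimic library 1, with a lowest value of -2.53 without mimic library 2. The place in the order of levels changed for 3 members with the longest transcript as length and for 2 with unshared exon bases, which was chosen after seeing the data. Apart from these, no member or gene named by the rule changed sign in the alternatives that gave it a value. DESeq2 gave no adjusted p for IGFBP2, IGFBP3, IGFBP6 or IGFALS, the filter at 10 CPM removed low genes such as IGFBP6 and IGFALS, and FOXO1, PCK1, G6PC1 and ALB were not followed through the alternatives. The causes of these changes were not tested. IGFALS rests on 10 to 22 reads per library and IGFBPL1 on 2 to 16, which limits their precision.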

Other observations

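Ratios of members within a library, which no scaling of libraries can change, were as follows. IGFBP1 stood at 9.02 and 10.1 times IGFBP4 per kb of exon in mimic libraries 1 and 2, and at 10.7 and 11.5 times in control libraries 1 and 2, so this ratio was lower in both mimic libraries and the groups did not overlap. IGFBP1 stood at 5.41 and 5.78 times IGF2 with the mimic, and at 5.69 and 6.59 times in the control, so this ratio overlapped between the groups. IGF2R stood at 6.97 and 6.50 times IGF1R with the mimic, and at 6.37 and 7.82 times in the control, also with overlap. The ratios of IGFBP1 to IGF2 use all exon bases of IGF2, of which most are shared with other genes.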
